A study of Mus musculus with 6 samples.

Results

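The genes described here are 10 markers of macrophages and other myeloid cells: Fcer1g, Tyrobp, Csf1r, Ptprc, Laptm5, Aif1, Cd68, Lyz1, Lyz2 and Spi1. They were found by the RefSeq accession that the arrays give for each probe, which matched 9 of the 10 genes to 12 of 39429 non-control probes. No probe was matched to Cd68, which was not analysed here. Of the 12 probes, 10 rose well above background on 3 or more arrays, so that 7 of the 10 genes were among the 21800 genes tested. Ptprc and Spi1 did not reach that level and are given as values only.

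The samples were mouse hearts at embryonic day 9.5, taken as the heart tube together with underlying pharyngeal tissue (mesoderm and endoderm). Of the 6 pools, each of 4 embryos, 3 were wild type and 3 Arid3b-null, that is, without a working gene for the DNA-binding protein Arid3b. Each pool was hybridised in a single colour to 1 Agilent array. How the null allele was made is not stated in the sources used here.

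Macrophages are phagocytes, and those of the early embryo are known to arise in the yolk sac and to enter the heart and other organs with the blood. Their identity depends on the transcription factor PU.1, the product of Spi1, and on CSF1R, the receptor for the growth factors CSF1 and IL-34. Many of their receptors have no signalling tail of their own and use a small adaptor, the Fc receptor gamma chain (Fcer1g) or DAP12 (Tyrobp), whose tyrosine motif recruits the kinase Syk. Platelets use the same gamma chain with the collagen receptor glycoprotein VI, so Fcer1g is not restricted to macrophages.

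Levels are log2 signal relative to the 75th percentile of the same array, so that a negative value is a signal below that percentile. Of 43020 non-control spots per array, 27136 to 31039 were well above background and 0 saturated. With 3 arrays in a group precision is limited, and p-values measure the spread between pools. Each of 3 slides carried both genotypes, as pools of a shared number, and on each slide the wild-type array took place 3 and the null array place 4, so that place and genotype cannot be told apart. Arid3b was lower in the null pools by 2.65 log2 units (limma adjusted p = 0.00197) on its brightest probe. The labelled tissue was borne out by its markers, since all 12 heart muscle genes listed were measured, with mean levels of 6.19 in wild-type and 6.21 in null pools.

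The myeloid label held less well. Spi1 reached no signal well above background, Ptprc, which encodes the pan-leukocyte phosphatase CD45, was so on 2 wild-type arrays only, and Lyz2 on 3 of the 6 arrays. The 10 genes are therefore called marker genes below, and no macrophage content is read from them. In these pools of mixed tissue, fewer cells of a type and less RNA per cell cannot be told apart.

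In null against wild-type hearts, 2 of the 7 marker genes tested rose, Fcer1g by 3.75-fold and Laptm5 by 3.51-fold, and 1 fell, Lyz1 by 1.95-fold. Tyrobp, Csf1r, Aif1 and Lyz2 did not pass the test. Over all 21800 genes, 10.4% passed the limma threshold of an adjusted p under 0.05, 6.61% higher and 3.8% lower in the null pools. No overlap between genotypes was seen for 4 of the 7 marker genes, Aif1 in addition to the 3 that passed, against 32.9% of all genes tested. Of these 4, 3 lay higher and 1 lower in null hearts, where 18% and 14.9% of all genes did. In the slide-blocked fit 2 of the 7 passed, both higher, against 3.31% of all genes, and of the kept probes tested singly 10.2% passed. The median log2 difference of the 7 was 0.42, and 0.03 over all genes tested.

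**Figure D1:**
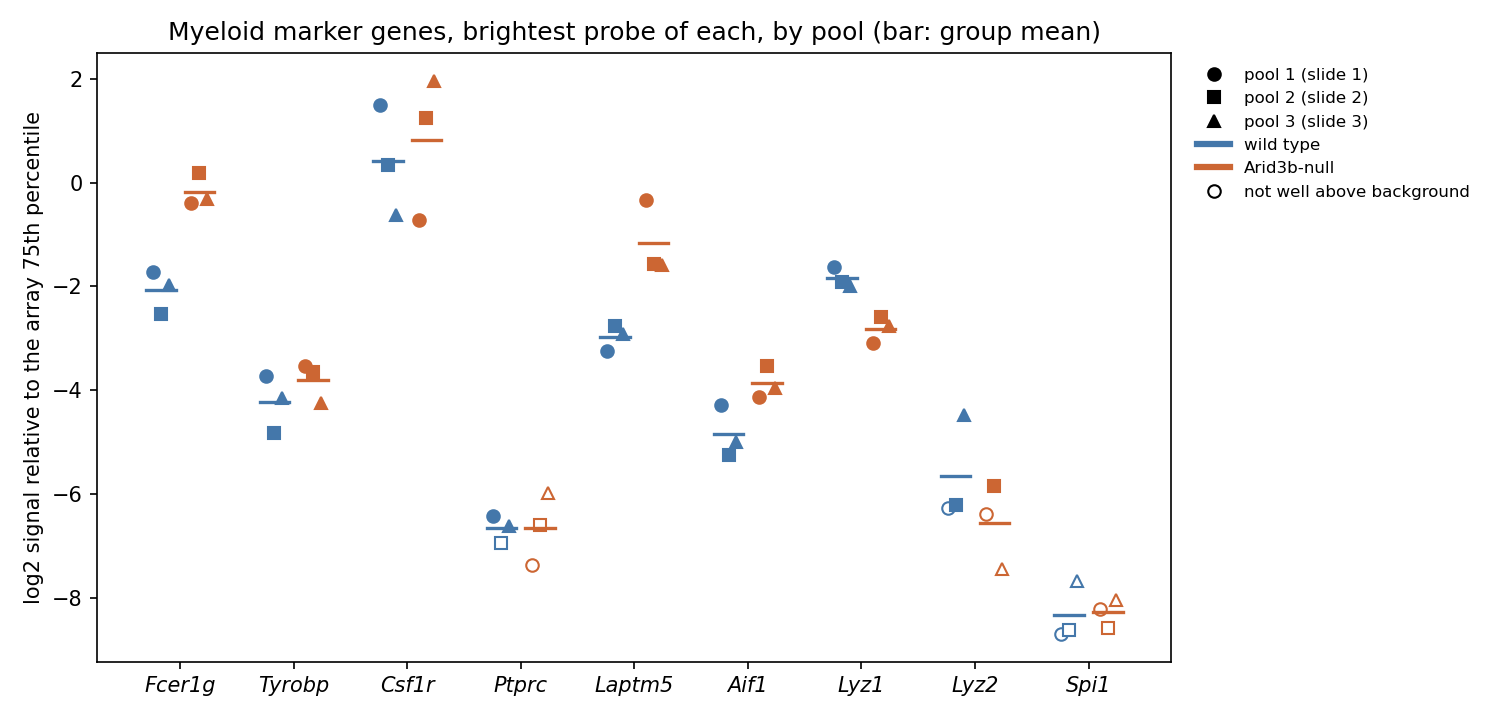
Log2 signal relative to the array's 75th percentile (vertical axis) for the brightest probe of 9 marker genes in 3 wild-type and 3 Arid3b-null pools; shapes mark the pool number and slide, bars the group means, and open symbols signals not well above background. Fcer1g, Laptm5 and Aif1 lie higher and Lyz1 lower in all 3 null pools, while Csf1r, Tyrobp, Lyz2, Ptprc and Spi1 overlap between groups.

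Of the 2 adaptor genes, Fcer1g rose and Tyrobp did not pass the test. Fcer1g read -1.73, -2.54 and -1.98 in wild-type pools 1, 2 and 3 and -0.40, 0.19 and -0.31 in null pools 1, 2 and 3. Every null pool lay above every wild-type pool, with more than 1 log2 unit between the groups. The means were -2.08 ± 0.41 and -0.18 ± 0.32 (SD, n = 3 pools each), a difference of 1.91 log2 units (SE 0.26, limma adjusted p = 0.00646, slide-blocked 0.0230). Within slides 1, 2 and 3 the null pool was higher by 1.33, 2.72 and 1.66. The call held with each of the 6 pools left out, where the adjusted p ran from 0.0103 to 0.0281.

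Tyrobp encodes DAP12, the adaptor for receptors of the TREM family. Its levels were -3.74, -4.82 and -4.15 in the wild-type pools and -3.53, -3.66 and -4.25 in the null pools. The groups overlapped, with null pool 3 below 2 of the wild-type pools. The difference of 0.42 (SE 0.31, 95% interval -0.31 to 1.16, limma adjusted p = 0.437) leaves room for no change and for a rise of more than 1 log2 unit. Whether the differences of the 2 adaptors differ from each other was not tested.

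Markers of another blood lineage also rose. All 17 measured genes of the megakaryocyte and platelet list rose in the null pools, with a median difference of 2.07. Of all genes tested, 6.61% rose. The platelet count was 15 in the slide-blocked fit and 13 to 17 with 1 pool left out. The summed level of the platelet list, in units of the array's 75th percentile signal, was 6.60 to 10.1 in wild-type and 50.8 to 80.4 in null pools. Among its genes were Pf4, platelet factor 4, which rose by 3.65 (SE 0.32), and Gp6, the glycoprotein VI that pairs with the gamma chain, which rose by 3.06 (SE 0.23). Fcer1g was highest in null pool 2 and lowest in wild-type pool 2, as was the summed level of the list. The same pools were the ends for Aif1 and for the sums of primitive erythroid genes (296.3 and 1212) and leukocyte genes (5.42 and 10.4). This order was thus not particular to platelet genes. The platelet sum adds unlogged signals and in null pools is mostly Pf4, with means of 1.70 in wild-type and 5.35 in null pools. The part of the platelet genes in the rise of Fcer1g was not tested. The genes whose profiles over the 6 arrays lay nearest to that of Fcer1g were Sdc4, a syndecan, Mef2b, a transcription factor, and Clec1b, a platelet receptor of the same list. Their root mean square differences from it were 0.11, 0.11 and 0.14 log2 units, and 430 of 15232 genes with a symbol lay within 0.5. Mef2b read -6.865 in wild-type pool 2, below that array's dimmest signal well above background, -6.806.

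Csf1r was read by 3 probes that did not show the same pattern. The brightest, A_55_P2025078, read 1.496, 0.34 and -0.62 in wild-type pools 1, 2 and 3 and -0.73, 1.24 and 1.96 in null pools 1, 2 and 3. It spanned 2.69 log2 units over the 6 arrays, with wild-type pool 1 and null pools 2 and 3 high, and so gave no separation by genotype. The difference was 0.42 (SE 0.76, 95% interval -1.35 to 2.18, limma adjusted p = 0.775), and within slides 1, 2 and 3 it was -2.23, 0.90 and 2.58.

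The other Csf1r probes spanned 1.05 and 1.06 log2 units over the arrays. A_55_P2025073 read -2.42, -3.07 and -3.13 in the wild-type pools and -3.46, -2.70 and -2.62 in the null pools. It put the pools in the same order as the brightest probe, except that wild-type pool 1 and null pool 3 changed places at the top. A_52_P602091 read -3.82, -4.19 and -4.44 against -3.62, -3.38 and -3.49, and here the null pools lay above all wild-type pools. Tested probe by probe, the differences were -0.06 (SE 0.29, limma adjusted p = 0.924) and 0.65 (SE 0.20, limma adjusted p = 0.0810). No Csf1r probe passed, so none gave Csf1r an established direction. On the brightest probe the sign of the difference turned without wild-type pool 3 (-0.09) or null pool 3 (-0.15).

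The profiles nearest to that of the brightest Csf1r probe were those of Tbc1d21, Serpina3k and the NADPH oxidase gene Nox1. They lay 0.16, 0.17 and 0.22 log2 units from it in root mean square over the 6 arrays, nearer than the other 2 Csf1r probes, which lay 0.72 and 0.88 from it. Within 0.5 lay 58 of 15232 genes with a symbol. Serpina3k read -7.43 in null pool 1, below that array's dimmest signal well above background, -6.69, so its likeness rests partly on background. The summed level of 7 measured trophoblast and placental genes, a lineage in which Csf1r is also known to be expressed, was 12.8, 5.66 and 15.5 in wild-type pools 1, 2 and 3 and 21.3, 28.6 and 57.6 in null pools 1, 2 and 3. Both were highest in null pool 3, but null pool 1 was the lowest pool of the probe and lay above every wild-type pool in the sum. Null pool 3 stood apart through Prl3d1, a placental lactogen named after its values were seen, which read 4.78 there, -0.97 in null pool 2 and -3.30 to -2.99 in the other pools. Without Prl3d1 the sum was 12.7, 5.54 and 15.4 in the wild-type and 21.2, 28.1 and 30.1 in the null pools. That sum adds unlogged signals and is mostly Gcm1, with means of 2.79 in wild-type and 4.52 in null pools. Gcm1 did not pass (limma adjusted p = 0.0522). The next brightest, Hand1, had means of 1.40 and 0.58, so the sum says little about the other genes. Gcm1 and Hand1 were named after their values were seen. The part of these genes in the Csf1r signal was not tested.

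**Figure D2:**
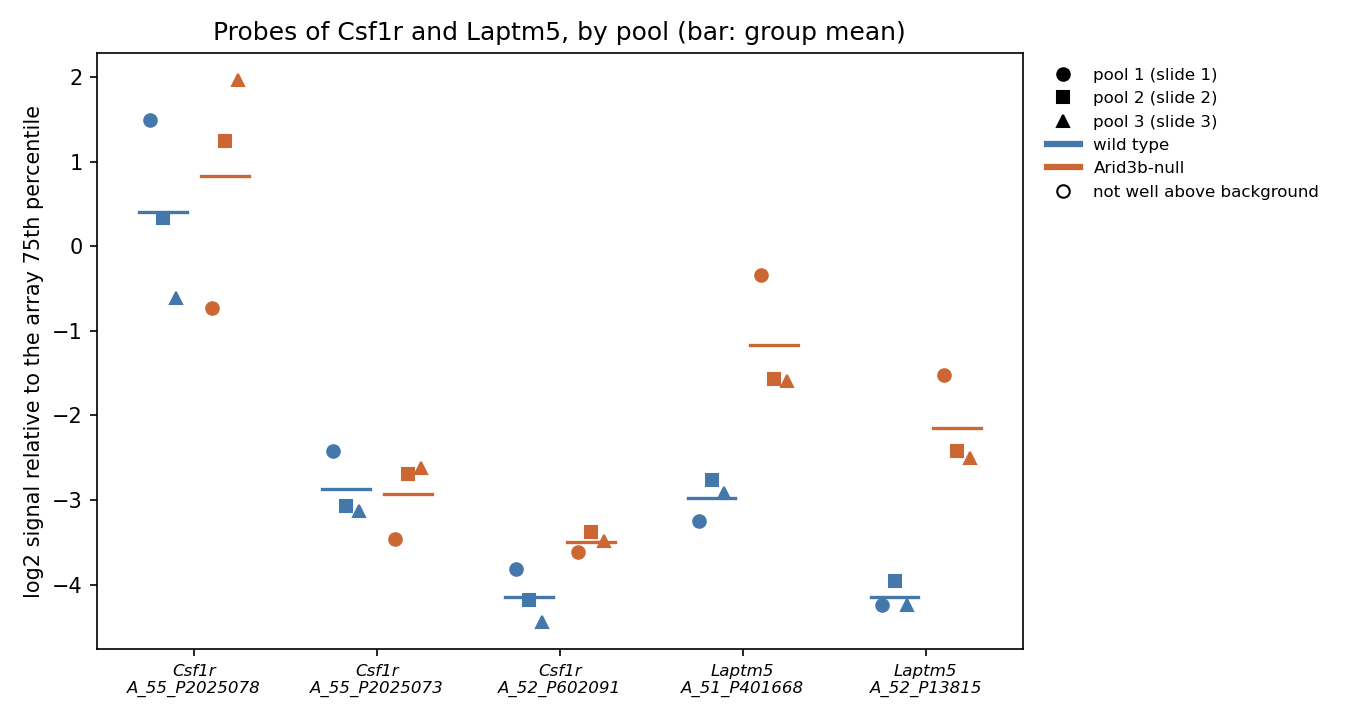
Log2 signal relative to the array's 75th percentile (vertical axis) for each probe of Csf1r and Laptm5 in the 3 wild-type and 3 Arid3b-null pools; shapes mark the pool number and bars the group means. On both Laptm5 probes every null pool lies above every wild-type pool and null pool 1 is highest, whereas only the dimmest Csf1r probe separates the groups.

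Of 10 measured genes for colony-stimulating factors, their receptors and the Kit and Flt3 pairs, 1 rose and 0 fell. The share that passed was 10%, near the 10.4% of all genes tested. The median was 0.39, with 8 differences above 0, against 0.03 and 11461 of 21800 over all genes. The number that rose was 3 with array weights. The gene that rose was Kit, the stem cell factor receptor of blood progenitors and mast cells, at 1.29 (SE 0.23, limma adjusted p = 0.0169, slide-blocked 0.0655). Csf1 differed by 0.55 (SE 0.27, 95% interval -0.07 to 1.17, adjusted p = 0.238) and Il34 by 0.20 (SE 0.25, adjusted p = 0.664) in limma.

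Ptprc read -6.43, -6.95 and -6.62 in the wild-type pools and -7.36, -6.61 and -5.98 in the null pools. It was well above background on wild-type arrays 1 and 3 and on none of the null arrays, so no fold is given. Of 17 measured genes that most leukocytes share, 7 rose and 0 fell, with a median of 0.45 and 11 differences above 0. Of all genes, 6.61% rose, with a median of 0.03 and 11461 of 21800 differences above 0. The count was 4 in the slide-blocked fit and also after dropping null pool 2. The 5 with the smallest p were Fyb, an adaptor of T cells and platelets (2.98, SE 0.23), Plek, the platelet kinase substrate pleckstrin (2.96, SE 0.23), the exchange factor Vav1 (2.31, SE 0.18), the actin regulator Was (1.61, SE 0.18) and the integrin chain Itgb2 (0.98, SE 0.16). Fyb was well above background on 2 of the 3 wild-type arrays. Lcp1 and Hcls1, which belong to the same list and were named after their values were seen, differed by -0.02 and -0.0066.

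Laptm5, a lysosomal membrane protein of blood cells that promotes the breakdown of antigen receptors, rose on both of its probes. The brighter, A_51_P401668, read -3.25, -2.76 and -2.92 in wild-type pools 1, 2 and 3 and -0.34, -1.57 and -1.59 in null pools 1, 2 and 3. Null pool 1 stood above the other null pools, and all 3 lay above every wild-type pool. The means were -2.98 ± 0.25 and -1.17 ± 0.72 (SD, n = 3), a difference of 1.81 (SE 0.35, limma adjusted p = 0.0214, slide-blocked 0.0444). The other probe, A_52_P13815, gave 1.998 (SE 0.28, limma adjusted p = 0.00647 over all probes kept), and the centred profiles of the 2 lay 0.17 log2 units apart.

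The call of Laptm5 on its brighter probe ended without wild-type pool 1, 2 or 3 (limma adjusted p = 0.0546, 0.0681 and 0.0690) and when dim probes were all kept (0.0528), but stood without null pool 1, where the difference was 1.40 (adjusted p = 0.0136). Laptm5 was highest in null pool 1, which had the lowest summed level of the platelet list among the null pools, 50.8. The place of the pools was thus not the same for Laptm5 and for Fcer1g.

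Aif1, a calcium-binding protein of macrophages and microglia also called IBA1, lay higher in each null pool. It read -4.29, -5.25 and -4.997 in the wild-type and -4.13, -3.53 and -3.96 in the null pools. Wild-type pool 1 and null pool 1 differed by only 0.16, against 1.72 and 1.03 within the other slides. The difference of 0.97 (SE 0.29, 95% interval 0.30 to 1.64) had an unadjusted p = 0.0104 and a limma adjusted p = 0.0738, and so did not pass. It passed with array weights (adjusted p = 0.0120) and without wild-type pool 1 (0.0308).

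Lysosomal and engulfment genes, which many cell types use, were higher in part. Of 19 measured, 6 rose and 0 fell, with a median of 0.52. The share that passed was 31.6%, against 10.4% of all genes tested. Their summed level was 115.5 to 119.1 in wild-type and 157.8 to 169.9 in null pools. Lgals3, a lectin, rose by 3.82 (SE 0.31), the lysosomal enzyme gene Hexa by 0.98 (SE 0.19), the scavenger receptor Cd36, also a platelet glycoprotein, by 1.36 (SE 0.21), and the protease Ctsa by 0.92 (SE 0.18). The count became 2 on leaving out either pool numbered 2, 3 on leaving out either pool numbered 3, 2 in the slide-blocked fit or with all dim probes kept, and 11 with array weights.

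Lyz1 and Lyz2 encode lysozyme, which breaks bacterial cell walls, and lie beside each other in the mouse genome as copies of one gene. Lyz2 is the copy known from macrophages and Lyz1 the one known from Paneth cells of the gut. The stretches before their starts are shown because they let the likeness of the copies be seen: of the last 100 bases before the start (RefSeq, GRCm38.p6, minus strand), 92 were identical, and capitals mark the 8 that differ, none of them in the last 50. The Lyz1 stretch lies at chr10:117292869-117292968 and the Lyz2 stretch at chr10:117282273-117282372.
Lyz1: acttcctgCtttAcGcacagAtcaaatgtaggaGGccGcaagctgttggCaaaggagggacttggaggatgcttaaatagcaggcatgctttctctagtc
Lyz2: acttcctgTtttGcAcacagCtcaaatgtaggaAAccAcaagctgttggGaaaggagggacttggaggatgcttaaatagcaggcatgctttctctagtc

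The probe of Lyz1 read -1.63, -1.92 and -2.00 in wild-type pools 1, 2 and 3 and -3.10, -2.59 and -2.76 in null pools 1, 2 and 3. All null pools lay below all wild-type pools. The means were -1.85 ± 0.20 and -2.82 ± 0.26 (SD, n = 3), and Lyz1 fell by 0.96 log2 units (SE 0.19, limma adjusted p = 0.0244). The slide-blocked adjusted p was 0.109, and without any 1 of the 6 pools it ran from 0.0510 to 0.0792, so that the call rested on all of them. It also ended with normexp background correction (-0.50, adjusted p = 0.0893) and when dim probes were all kept (0.0667).

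The Lyz2 probe was far dimmer. It read -6.28, -6.21 and -4.48 in the wild-type and -6.39, -5.86 and -7.45 in the null pools, and was well above background in wild-type pools 2 and 3 and null pool 2 only. The groups overlapped, with wild-type pool 3 and null pool 3 at the ends of the range. The difference of -0.91 (SE 0.57, limma adjusted p = 0.356) did not pass and turned to 0.22 with normexp. Probe sequences were not used here, so how far each probe reads the other copy was not tested.

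**Figure D3:**
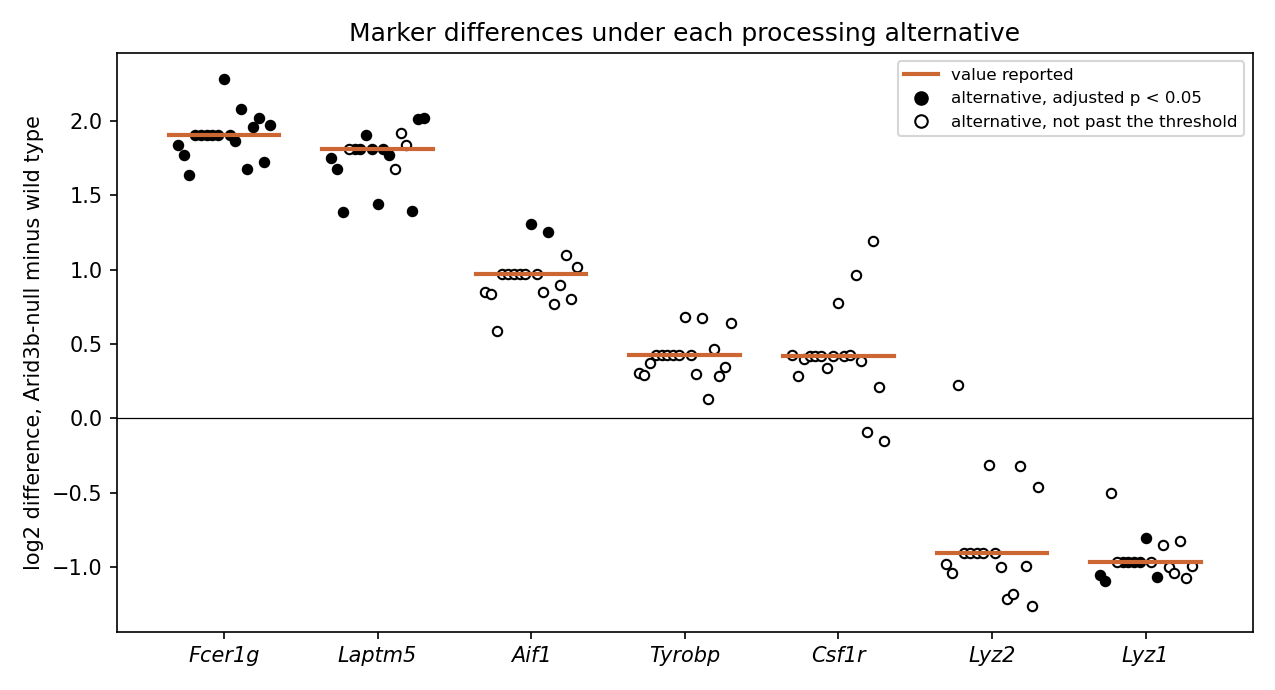
Log2 difference, Arid3b-null minus wild type (vertical axis), of the 7 tested marker genes; the coloured bar is the value reported and each point 1 processing alternative or 1 left-out pool, filled where the limma adjusted p was under 0.05. All points of Fcer1g are filled, Laptm5 and Lyz1 have filled and open points, and Csf1r and Lyz2 have points on both sides of 0.

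Spi1 encodes PU.1, without which macrophages do not form. Its signal was not well above background on any array, at -8.71, -8.63 and -7.69 in the wild-type and -8.23, -8.58 and -8.04 in the null pools, so its level has no measured direction. Of 14 measured genes for other transcription factors of myeloid cells and early blood progenitors, 2 rose and 1 fell, with a median of 0.15. The share that passed was 21.4%, against 10.4% of all genes tested. With array weights 5 rose. Runx1, needed for the emergence of blood cells, rose by 1.92 (SE 0.24, limma adjusted p = 0.00497) and Cebpb, a factor of macrophages and many other cells, by 1.55 (SE 0.16, adjusted p = 0.00237). Myb, a factor of definitive blood progenitors, fell by 1.39 log2 units (SE 0.21, adjusted p = 0.00864 in limma), a call that ended with normexp. Irf8, a myeloid factor, differed by 0.51 (SE 0.15) with a limma adjusted p = 0.0799.

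The promoters of the risen marker genes are shown for the PU.1 core GAGGAA, searched on both strands in the 250 bases before each start. The RefSeq table (GRCm38.p6) held promoters of 7 of the 10 marker genes, 8 in all because Ptprc has 2; Csf1r, Tyrobp and Spi1 were not matched. The core was present in 4 of these 8 (Aif1, Cd68, Laptm5 and 1 of Ptprc), against 23.3% of 32851 promoters. In Laptm5 it lay on the other strand, in capitals in the stretch at chr4:130913266-130913295 (plus strand). In Fcer1g these letters were not found in the window, whose last 100 bases lie at chr1:171234350-171234449 (minus strand).
Laptm5: gcagcctgtggcTTCCTCttttttgttctg
Fcer1g: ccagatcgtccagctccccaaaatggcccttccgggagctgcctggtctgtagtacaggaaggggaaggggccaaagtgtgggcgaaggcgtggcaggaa

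A match describes letters, not a bound site. Of the same 8 promoters, 4 held the C/EBP-like motif TTNCNNAA and 2 the GATA motif GATAA on either strand, against 36.8% and 22.6% of all promoters. Among 13 promoters of the platelet list, 7 held GAGGAA and 7 held GATAA.

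Of 24 further macrophage genes with a probe, 14 were measured, and 0 of them passed the limma test, with 1 at an unadjusted p under 0.05. Of all 21800 genes tested, 10.4% passed and 5858 had an unadjusted p under 0.05. With all dim probes kept, 1 passed. Of the 14, 12 had a difference above 0, and the median was 0.17, against 11461 of 21800 and 0.03 over all genes. Their summed level overlapped between groups, at 6.84 to 11.2 in wild-type and 8.72 to 10.5 in null pools. That sum adds unlogged signals and is mostly Itgam, with means of 2.82 in wild-type and 2.88 in null pools. The next brightest, Dab2, had means of -0.12 and 0.17, so the overlap says little about the other genes. Differences were 0.39 (SE 0.28) for Adgre1, the F4/80 antigen, 0.54 (SE 0.36) for the chemokine receptor Cx3cr1, 0.31 (SE 0.18) for the mannose receptor Mrc1, 0.16 (SE 0.37) for the hyaluronan receptor Lyve1 and 0.10 (SE 0.36) for the complement gene C1qb. Itgam, the CD11b chain, differed by 0.05 (SE 0.25), and Maf, with the smallest p and no overlap between the groups, by 0.61 (SE 0.18, limma adjusted p = 0.0765). The signs for C1qb, Itgam and Lyve1 turned under some alternatives.

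The 10 macrophage genes below the filter included C1qa, above background on 1 array, and the scavenger receptors Cd163 and Msr1, above it on none. Trem2, a receptor that signals through DAP12, is named after its values were seen. It was well above background on 0 wild-type and 2 null arrays, with levels of -7.17, -7.69 and -7.12 against -5.31, -5.12 and -5.52. The null mean over all 3 pools, 1 of them not well above background, was -5.31, and the measured wild-type mean was -7.33. With each wild-type array set to its own Trem2 signal or to its dimmest signal well above background, whichever was higher, the null mean was 3.01-fold higher. That is no strict lower limit. All null values lay above the dimmest signals well above background of their arrays (-6.69, -6.48 and -5.87), yet 1 did not count as well above background. The fit of the measured values, dim probes kept, gave a limma adjusted p = 0.0095 over all probes. Because Trem2 was picked by its values, that p is no independent test of a rise.

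Of all genes tested 10.4% passed, against 25% of 16 measured receptors, kinases and adaptors of the gamma chain and DAP12 pathway. Among these 16, 4 rose and 0 fell, with a median of 0.47. The 4 that rose were Gp6, the kinase Btk (2.53, SE 0.17), Vav1 and Hcst, which encodes the adaptor DAP10 (1.69, SE 0.40, limma adjusted p = 0.0401, slide-blocked 0.0664). Hcst was well above background on 2 of the 3 wild-type arrays. Syk differed by 0.49 (SE 0.16, limma adjusted p = 0.0954). The call of Hcst ended on leaving out any pool other than wild-type pool 1. The count was 9 with array weights, and 1 gene fell with quantile normalization, median scaling, array weights, the authors' table or null pool 2 left out. Gp6 also belongs to the platelet list and Vav1 to the list of leukocyte genes, so these counts are not separate. The Fc receptor genes Fcgr1, Fcgr3 and Fcer1a, whose products use the gamma chain in myeloid and mast cells, did not reach the level for testing, with 1, 2 and 0 arrays above background.

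**Figure D4:**
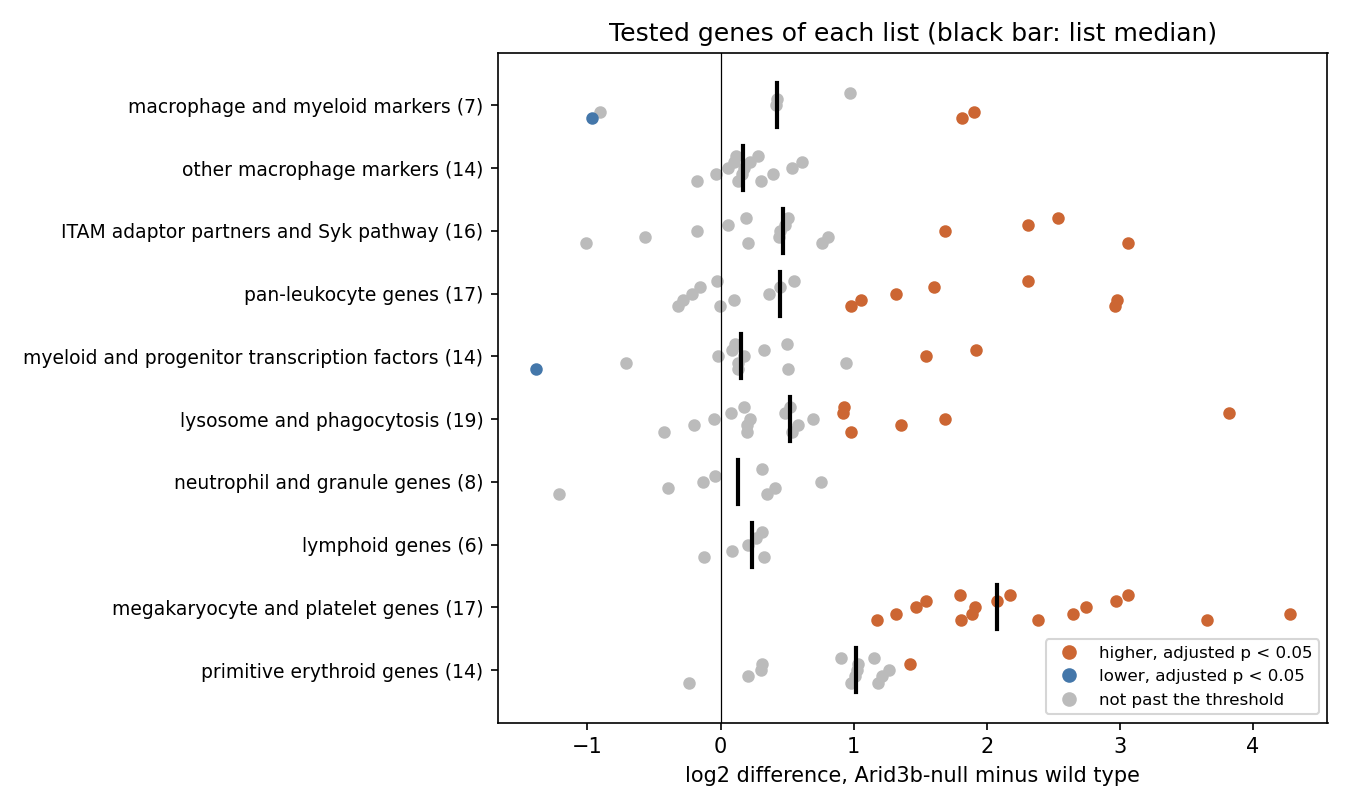
Log2 difference, Arid3b-null minus wild type (horizontal axis), for each tested gene of 10 lists, with the number tested in brackets; coloured points passed a limma adjusted p under 0.05 and black bars are list medians. The platelet list lies wholly above 0 with a median of 2.07, the further macrophage markers centre on 0.17, and the marker genes spread from -0.96 to 1.91.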

How the data were processed

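Expression was measured in 3 wild-type and 3 Arid3b-null pools, and groups and pool numbers came from the sample titles. The deposited intensity values, 1 file per array, come from Agilent Feature Extraction 10.7.3.1 (design 026655), per the file headers, with background subtracted and no scaling between arrays. The authors' deposited log2 table covers 24158 non-control probes and correlates with the scanner signal at r of 0.99938 or more across probes, which are not independent. The sources used here do not say how it was made.

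Processed signals were taken to log2, less the 75th percentile of the array's non-control spots. Outlier spots were left out and a probe's spots averaged. Probes well above background on at least 3 arrays were kept (26848), and a gene was read by its brightest kept probe. Symbols came from RefSeq accessions in a GRCm38.p6 table (26424 of 39429 probes), while the headers name mm9, so no array coordinates are given. Null and wild-type pools were tested two-sided in R 4.3.3 by limma 3.58.1 (lmFit, eBayes, no block), with Benjamini-Hochberg adjustment over 21800 genes. SE is the moderated standard error. An exact permutation test of 3 against 3 pools could not reach the threshold and was not used. The script was tested on simulated data.

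Named were all probes of the marker genes and Arid3b, up to 5 called genes of smallest p per other list (2 where none was called), 20 genes whatever their values, and the 3 nearest profiles to Csf1r and Fcer1g. Some genes this rule takes are given only within counts. The marker genes, lists and rules were chosen with earlier results of these data known. The motifs were chosen after the data were seen. The alternatives were those described in the closing section.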

Additional observations from a re-analysis of the deposited data

How the results depend on the processing

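Fcer1g was higher and past the threshold in all 17 alternatives run on it, with differences from 1.64 to 2.28 and limma adjusted p from 0.000489 to 0.0281. Of the marker genes, 1 rose with all dim probes kept, 3 when arrays were weighted, and 1 to 2 with 1 pool left out. None fell with normexp, with no filter or with the slide as a block (0 in each), and 0 fell with any pool left out. Quantile normalization, median scaling, outlier spots kept, the mean of probes, each probe on its own, a trended prior, the authors' table and probes above background on all 6 arrays left 2 and 1. The number of genes called was 1034 with no filter, 4843 with array weights, 722 with the slide as a block, and 832 to 1743 with 1 pool left out, against 2270. Median scaling gave 1102 higher and 1394 lower, against 1441 and 829, and moved the median of all genes from 0.03 to -0.11. The median was 0.16 with normexp and 0.17 with no filter. The slide block was the replicate number: same-numbered pools did not deviate alike (correlations of -0.40, -0.09 and -0.41 across genes), and why calls were lost under the block was not tested. Signs turned for the log2 change of C1qb with quantile normalization (-0.014), median scaling (-0.030) and the authors' table (-0.032), for the log2 change of Itgam with median scaling (-0.079) and for Lyz2 with normexp (0.22). With 1 pool left out, the range was -0.29 to 0.42 for C1qb, -0.15 to 1.20 for Csf1r, -0.025 to 0.35 for Il34, -0.19 to 0.26 for Itgam and -0.25 to 0.43 for Lyve1. The causes were not tested. Dim signals limit Ptprc, Spi1 and Lyz2, whose values near background have no reliable order.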

Other observations

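Lists of genes of other immune cells differed from one another in level. The measured neutrophil and granule genes had a mean level of -3.99 in wild-type and -3.98 in null pools, and the lymphoid genes -1.54 and -1.36. Of the lymphoid genes, Cd4, Cd3e and Lck had means above 0 in both groups. The oxidase gene Cyba read 3.39 and 3.61 in the means. Cd4 and Cyba were named after their values were seen. Over all 21800 genes tested, 10.4% passed and 5858 had an unadjusted p under 0.05. Of 8 measured neutrophil and granule genes, 0 passed the limma test, with 1 at an unadjusted p under 0.05 (Mmp9, -1.21, SE 0.38), and 1 fell without wild-type pool 1. Mpo, a granule peroxidase, differed by 0.35 (SE 0.42). S100a8 was above background on 2 arrays. Of 6 measured lymphoid genes, 0 passed and 0 had an unadjusted p under 0.05 in limma, and Cd3e differed by 0.27 (SE 0.21). Of 3 measured NADPH oxidase genes, 0 passed the limma test, with 1 at an unadjusted p under 0.05. Array weights gave 1 higher in the oxidase list, and 1 higher and 1 lower in the neutrophil list. Cybb, the catalytic chain in phagocytes, was above background on 0 arrays. Of the mast cell list 2 genes were measured, and they went opposite ways. Hdc, the histamine-forming enzyme, fell by 1.19 log2 units (SE 0.18, limma adjusted p = 0.0084, slide-blocked 0.0513). Tpsb2, named after its values were seen, lay higher in each null pool, by 0.36 (SE 0.15), and did not pass (limma adjusted p = 0.164). Cpa3, a mast cell protease, was above background on 0 arrays.

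Among 12 measured cytokines, chemokines and their receptors, 1 rose and 1 fell, a share of 16.7% against 10.4% of all genes tested. Ccl2, a chemokine that draws monocytes, read -2.03, -2.18 and -2.67 in wild-type pools 1, 2 and 3 and -3.32, -4.35 and -5.42 in null pools 1, 2 and 3. It fell by 2.07 log2 units (SE 0.49, limma adjusted p = 0.0395), a call that ended on leaving out any pool other than null pool 1 and with all dim probes kept. Tgfb1 rose by 1.10 (SE 0.28, limma adjusted p = 0.0476), a call that ended on leaving out any pool other than wild-type pool 3, with median scaling, with all dim probes kept and in the slide-blocked fit. Il1b, Il6 and Tnf, the main inflammatory cytokines of macrophages, were above background on 0 of the 6 arrays.

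Of 14 measured primitive erythroid genes, 1 rose, Gata1 by 1.42 (SE 0.27), with a median of 1.02. The share that passed was 7.14%, under the 10.4% of all genes tested. Yet 10 of the 14 had an unadjusted limma p under 0.05, against 5858 of all 21800 genes. Of the erythroid differences 13 were above 0, against 11461 over all genes. The erythroid count was 10 with array weights, 5 with normexp, and 2 with the mean of probes, a trended prior, or either wild-type pool 1 or null pool 3 left out. It was 0 in the slide-blocked fit, with all dim probes kept, or on leaving out wild-type pool 2, wild-type pool 3 or null pool 2. Their summed level was 296.3 to 602.8 in wild-type and 777.4 to 1212 in null pools. Of 11 measured endothelial genes, 0 passed the limma test, with 1 at an unadjusted p under 0.05, and Flt1 differed by 0.81 (SE 0.22). The count was 2 without null pool 1 or with array weights. Of 7 measured trophoblast and placental genes, 2 rose, a share of 28.6% against 10.4% of all genes tested. The number that rose was 1 in the slide-blocked fit, with all dim probes kept, or on leaving out wild-type pool 2, wild-type pool 3 or null pool 2. The 2 were Ascl2, a trophoblast transcription factor (3.62, SE 0.19), and Pparg (1.09, SE 0.21). Of the 12 heart muscle genes, 1 rose, Nppa, a natriuretic peptide, by 1.27 (SE 0.18). The share that passed was 8.33%, under the 10.4% of all genes tested.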
